A study of Mus musculus with 8 samples.

Results

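The Wnt ligands, their Frizzled receptors and their secreted modulators were followed over 8 Agilent microarrays, 1 colour each, of RNA from the intestine of young mice. Members were taken as the genes of all non-control probes whose printed gene name starts with Wnt, Fzd, Sfrp, Dkk or Rspo followed by a digit. This gave 47 probes for 41 genes, of 25340 named genes on the array: 19 Wnt ligands, 10 Frizzled receptors (Fzd), 4 secreted Frizzled-related proteins (Sfrp), 4 Dickkopf proteins (Dkk) and 4 R-spondins (Rspo). A gene was kept when, in 1 group or more, both arrays had its probe well above background, which held for 33 of the 41 members and for 20138 of all named genes.

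The mice were 129SV pups, 3 days old, either wild type or carrying a claudin-7 knockout (KO), with no treatment. Claudin-7 (Cldn7) is a protein of epithelial cell junctions. RNA came from fragments of whole small or large intestine, so that 4 groups were formed with 2 arrays each: wild-type small, knockout small, wild-type large and knockout large intestine, each with replicates numbered 2 and 3. The labels name no tissue-restricted deletion and do not say which samples came from 1 pup, and the p-values therefore measure only the spread between these samples.

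Wnt proteins are secreted, lipid-modified ligands that bind Frizzled receptors together with the co-receptors Lrp5 and Lrp6, which stabilises beta-catenin and switches on genes driven by TCF/LEF factors. R-spondins bind Lgr receptors and raise the amount of Frizzled at the cell surface, secreted Frizzled-related proteins bind Wnt ligands outside the cell, and Dickkopf proteins bind Lrp co-receptors. In the intestine this pathway maintains the stem cells of the crypt, with ligands coming from Paneth cells and from cells of the underlying mesenchyme.

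Levels are given as log2 of the processed signal over the array's 75th percentile, and differences between groups as log2 values ± standard error with n = 2 arrays per group. A gene "passed" with a limma p under 0.05 after Benjamini-Hochberg adjustment over all 20138 genes. Cldn7 read 5.56 to 5.93 on the 4 wild-type arrays and 0.94 to 2.21 on the 4 knockout arrays. It fell by 4.34 ± 0.39 in the small intestine (adjusted p = 0.00804) and by 3.52 ± 0.39 in the large (0.0342), the latter not passing when any 1 large intestine array was left out, and the position of its probe relative to the deletion is unknown. The epithelial markers Epcam, Cdh1 and Vil1 read 3.85 or higher on every array, and Defa29, a Paneth cell defensin, read -1.16 to 4.51 on the small and -7.99 to -6.47 on the large intestine arrays. Both knockout arrays numbered 3 carried Xist at -2.42 and -2.43, against -7.46 to -6.25 on the other 6, and the Y-linked gene Ddx3y at -8.47 and -9.001, against 0.70 to 1.33 on the other 6. Each knockout group thus held 1 array with Xist and without Y-linked signal, and the wild-type groups held none. The liver gene Alb stood out on knockout large intestine replicate 2 (5.23), and Amy2a5, a pancreatic amylase, on wild-type large replicate 2 (2.30) and knockout large replicate 3 (2.05). No member spot was saturated or carried an outlier flag (0 of both), and 29 of the 41 members were well above background on all 8 arrays.

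In the small intestine, knockout against wild type asks which of these signals depend on claudin-7 there. The transcripts of the R-spondins Rspo2 and Rspo3, the ligand Wnt9a, the antagonists Sfrp1 and Dkk2 and the receptor Fzd9 were higher in the knockout, by 1.33 to 2.16 on the log2 scale. The ligand Wnt3 and the receptor Fzd5 were lower. Of the 33 members kept, 8 passed (24.2%), against 9.89% of all genes tested. The 6 higher ones stand against 6.38% of all genes, and the 2 lower ones against 3.51%. The median difference over the 33 members was 1.08, against -0.10 over all genes, and 23 members (69.7%) lay above 0, against 42.8% of all genes. Both knockout arrays lay above both wild-type arrays for 21 members (background 26.6%) and below them for 5 (background 32.7%). An unadjusted p under 0.05 was reached by 21 members (background 31.4%).

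**Figure D1:**
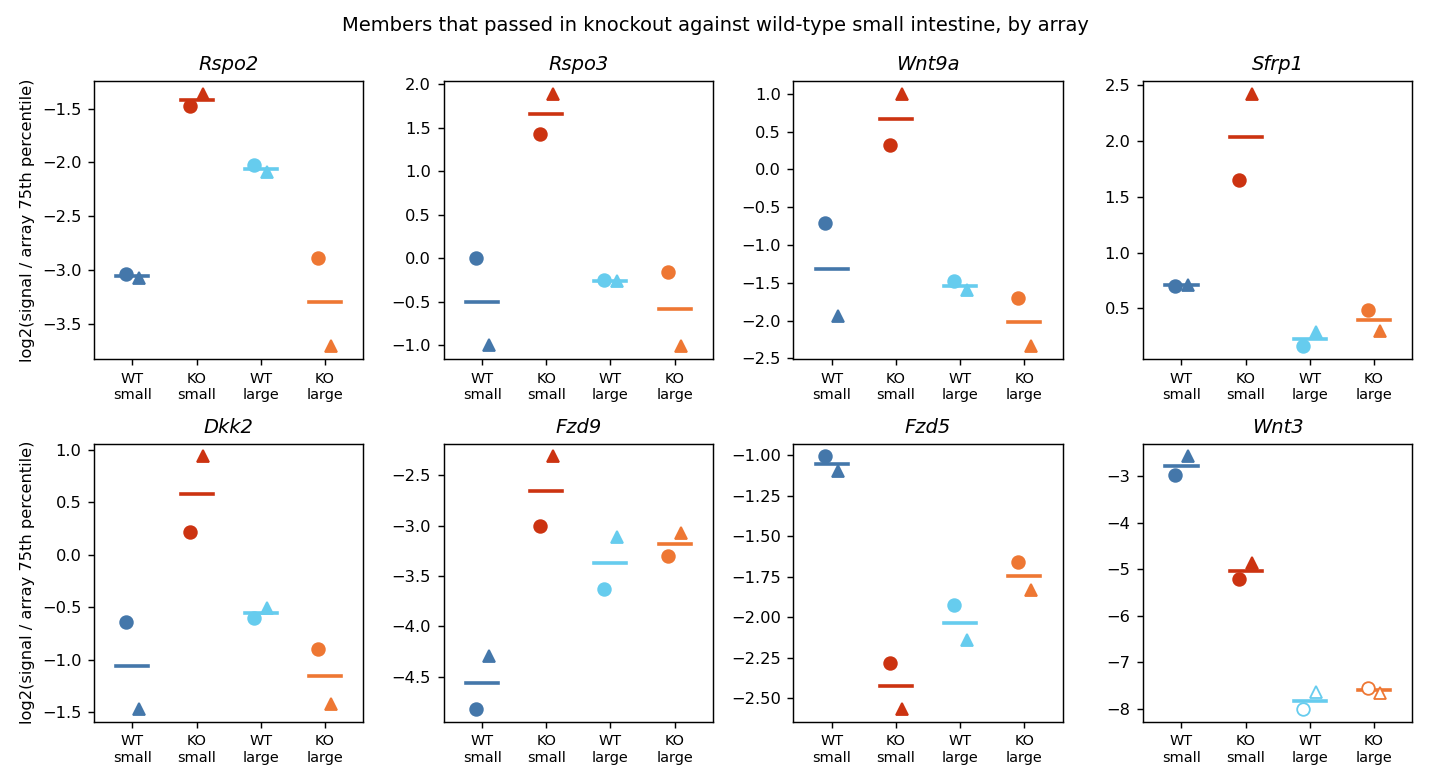
Level of the 8 members that passed in knockout against wild-type small intestine, on each of the 8 arrays (log2, relative to the 75th percentile; each panel has its own axis). Circles are arrays numbered 2 and triangles arrays numbered 3, bars are group means, and open symbols are spots not well above background. Wnt3 was well above background on the 4 small intestine arrays alone, and Rspo2, Rspo3, Wnt9a, Sfrp1, Dkk2 and Fzd9 were highest on the 2 knockout small intestine arrays.

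Among the ligands, Wnt3, which Paneth cells of the small intestinal crypt are known to make, read -2.98 and -2.57 on the wild-type and -5.20 and -4.86 on the knockout small intestine arrays. The groups did not overlap, and Wnt3 fell by 2.25 ± 0.24 (4.76-fold, adjusted p = 0.0126). Wnt9a read -0.70 and -1.94 in wild type and 0.33 and 1.003 in the knockout. It rose by 1.99 ± 0.46 (3.96-fold, adjusted p = 0.0453). Its 2 wild-type arrays differed more than its 2 knockout arrays. Of the other 12 ligands kept, 6 lay above 0 and 6 below, and none passed. Wnt6, a ligand of epithelia, differed by 1.70 ± 0.55 (adjusted p = 0.0891), and Wnt2, a ligand of mesenchyme, by 1.48 ± 0.49 (0.0947). The mesenchymal ligand Wnt2b differed by 1.32 ± 0.58 (0.171), Wnt11 by 1.12 ± 0.31 (0.0639), Wnt5a, the main ligand of beta-catenin-independent signalling, by 0.85 ± 0.26 (0.0768), and its close relative Wnt5b by 0.77 ± 0.25 (0.0904). For these 6 ligands both knockout arrays lay above both wild-type arrays. Wnt1 differed by -0.52 ± 0.19 (0.121) and Wnt4 by -0.58 ± 0.30 (0.239), both without overlap. Wnt9b (-0.11 ± 0.36) and Wnt10b (-0.13 ± 0.19) overlapped between the groups. Wnt10a, chosen after its values were seen, read -7.70 and -2.31 on the 2 wild-type arrays, and its difference was -0.42 ± 1.55.

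Of the 10 Frizzled receptors 1 rose and 1 fell. Fzd9 read -4.82 and -4.29 in wild type and -3.01 and -2.31 in the knockout, and rose by 1.90 ± 0.33 (3.73-fold, adjusted p = 0.0316). Fzd5, a receptor of the intestinal epithelium that serves Paneth cell maturation, read -1.01 and -1.10 against -2.28 and -2.57, and fell by 1.37 ± 0.20 (2.59-fold, adjusted p = 0.0244). A dimmer probe of Fzd5 gave -0.29 in this comparison, so that the size of the fall rests on the probe read. Among the receptors that did not pass, Fzd3 (1.39 ± 0.35, adjusted p = 0.0533), Fzd1 (0.96 ± 0.25, 0.0545), Fzd2 (1.46 ± 0.44, 0.0753), Fzd7 (0.62 ± 0.27, 0.174) and Fzd6 (1.05 ± 0.50, 0.199) read higher on both knockout arrays than on both wild-type arrays. The second probes of Fzd2 and Fzd7 gave 1.02 and 1.38. Fzd4 (-0.03 ± 0.31), Fzd8 (-0.12 ± 0.19) and Fzd10 (0.11 ± 0.30) lay close to 0.

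All 3 R-spondins kept by the filter read higher on both knockout arrays than on both wild-type arrays. Rspo3, the R-spondin of crypt-associated stromal cells, read 0.0034 and -1.004 in wild type and 1.43 and 1.89 in the knockout, and rose by 2.16 ± 0.42 (4.47-fold, adjusted p = 0.0365). Rspo2 had the tightest replicates of the 3, with -3.04 and -3.07 against -1.48 and -1.36, and rose by 1.64 ± 0.28 (3.11-fold, adjusted p = 0.0314). Rspo1 read 0.97 and -0.33 against 1.41 and 2.49, a difference of 1.63 ± 0.50 that did not pass (adjusted p = 0.0798). Its difference was about that of Rspo2, with a larger spread between replicates.

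All 4 secreted Frizzled-related proteins read above 0 and 1 passed. Sfrp1 read 0.70 and 0.71 in wild type and 1.65 and 2.43 in the knockout, and rose by 1.33 ± 0.28 (2.51-fold, adjusted p = 0.0396). Sfrp4 had a larger difference of 2.26 ± 0.75 that did not pass (adjusted p = 0.0924), with -5.15 and -4.67 in wild type and -3.84 and -1.46 in the knockout. Sfrp2 differed by 1.10 ± 0.34 (0.0823) and Sfrp5 by 1.08 ± 0.54 (0.221), the latter with overlapping groups. Of the Dickkopf proteins, Dkk2 read -0.64 and -1.47 against 0.22 and 0.94 and rose by 1.64 ± 0.37 (3.11-fold, adjusted p = 0.0447). Dkk3, a divergent member of the family, read 2.49 and 1.76 against 3.08 and 3.67, a difference of 1.25 ± 0.34 (0.0600).

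Of the 8 members that passed, 5 have an entry in the RefSeq promoter table (mouse build GRCm38.p6), which holds 27 of the 41 members. Their 250 bases before the start of the gene are printed because these 5 genes moved in the same comparison, in both directions. Capitals mark matches on either strand to the GC box GGGCGG, the CCAAT box CCAAT and the TATA box TATAAA, of which none overlapped another motif, and no capitals mark the TCF/LEF core CTTTGAT because it was in none of the 5.
Wnt3 (lower in the knockout, chr11:103773925-103774174, plus strand): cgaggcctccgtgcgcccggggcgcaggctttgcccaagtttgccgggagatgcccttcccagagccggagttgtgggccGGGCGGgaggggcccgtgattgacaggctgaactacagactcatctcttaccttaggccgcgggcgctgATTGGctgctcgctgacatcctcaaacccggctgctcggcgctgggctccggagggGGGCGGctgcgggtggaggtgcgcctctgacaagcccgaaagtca
Fzd5 (lower, chr1:64737751-64738000, minus strand): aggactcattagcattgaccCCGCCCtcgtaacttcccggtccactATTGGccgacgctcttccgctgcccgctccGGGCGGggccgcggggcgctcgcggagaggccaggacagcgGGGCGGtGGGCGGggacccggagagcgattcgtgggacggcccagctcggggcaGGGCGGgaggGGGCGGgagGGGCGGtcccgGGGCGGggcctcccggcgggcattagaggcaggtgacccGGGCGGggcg
Wnt9a (higher, chr11:59306680-59306929, plus strand): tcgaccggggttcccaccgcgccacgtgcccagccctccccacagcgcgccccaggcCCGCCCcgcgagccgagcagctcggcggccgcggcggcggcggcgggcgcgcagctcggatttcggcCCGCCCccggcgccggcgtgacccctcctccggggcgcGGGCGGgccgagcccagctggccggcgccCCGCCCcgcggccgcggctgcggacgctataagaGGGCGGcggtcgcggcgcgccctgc
Fzd9 (higher, chr5:135251048-135251297, minus strand): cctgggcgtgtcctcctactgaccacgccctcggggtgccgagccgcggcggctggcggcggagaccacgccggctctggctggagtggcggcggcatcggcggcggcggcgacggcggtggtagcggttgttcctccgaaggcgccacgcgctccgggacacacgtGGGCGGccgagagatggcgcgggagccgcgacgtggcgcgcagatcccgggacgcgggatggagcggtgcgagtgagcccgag
Dkk2 (higher, chr3:132085042-132085291, plus strand): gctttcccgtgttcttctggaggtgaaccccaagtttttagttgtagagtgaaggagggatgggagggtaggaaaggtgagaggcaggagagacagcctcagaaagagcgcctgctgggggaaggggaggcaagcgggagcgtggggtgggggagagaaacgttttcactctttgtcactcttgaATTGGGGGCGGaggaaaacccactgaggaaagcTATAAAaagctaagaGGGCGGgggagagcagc

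The 5 windows differ in base composition, from 55.6% G and C for Dkk2 over 68.0% for Wnt3 and 76.4% for Fzd5 and for Fzd9 to 84.4% for Wnt9a. The GC box matched 9 times in Fzd5, 5 times in Wnt9a, 2 times each in Wnt3 and Dkk2 and once in Fzd9. Of 32851 promoters in the table, 32.7% hold it in the same 250 bases, and 21 of the 30 member promoters do. A TATA box stood in Dkk2 alone of the 5, beginning 32 bases before the start, against 12.4% of all promoters and 4 of the 30. The TCF/LEF core was in 3.21% of all promoters and in 2 of the 30. A match is a description of the letters and not a site of binding.

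The other genes of the pathway were read from 3 lists. Of 36 symbols listed for further receptors and extracellular modulators, 32 matched a measured gene. Among the unmatched symbols was Gpr124, an older symbol of the listed Adgra2. Of the 32, 5 rose and 2 fell (21.9% passed, against 9.89% of all genes, with 6.38% higher and 3.51% lower). Cthrc1, a matrix-associated Wnt cofactor, rose by 2.39 ± 0.35 (adjusted p = 0.0244), Frzb, a Frizzled-related decoy also known as Sfrp3, by 1.61 ± 0.26 (0.0284), the Wnt5a receptor Ror1 by 1.55 ± 0.27 (0.0319), and Porcn, the enzyme that adds the lipid to Wnt ligands, by 1.63 ± 0.37 (0.0437). Adgra2, a Wnt7 co-receptor named here after its value was seen, rose by 1.47 ± 0.34 (0.0457). Porcn is an X-linked gene. In the small intestine it read 0.18 and 0.0018 in wild type, 2.18 on the Xist-positive knockout array and 1.25 on the other. In the large intestine it read 1.12 and 1.83 in wild type, 1.18 on the Xist-positive knockout array and 1.31 on the other. A link to Xist was not tested. Lgr5, the R-spondin receptor that marks crypt stem cells, fell by 2.21 ± 0.27 (adjusted p = 0.0173), and Rnf43, the ubiquitin ligase that removes Frizzled from the surface, fell by 1.07 ± 0.22 (0.0398). Of 51 cytoplasmic and nuclear components, all measured, 4 rose and 0 fell (7.84%, below the 9.89% of all genes): the planar polarity gene Prickle2 (1.98 ± 0.48), the Dishevelled antagonists Dact3 (1.82 ± 0.40) and Dact1 (1.24 ± 0.27), and the beta-catenin cofactor Pygo1 (1.59 ± 0.32), with adjusted p of 0.0379 to 0.0488. Of 25 crypt genes known as targets of beta-catenin and TCF, 24 were measured, and 4 fell and 0 rose (16.7%, against 9.89% of all genes). These were Lgr5 and Rnf43 again, the transcription factor Sox9 (-1.37 ± 0.26, adjusted p = 0.0354) and the homeobox gene Cdx1 (-1.31 ± 0.25, 0.0361). The medians of the 3 lists were 0.33, 0.10 and -0.12, against -0.10 over all genes.

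**Figure D2:**
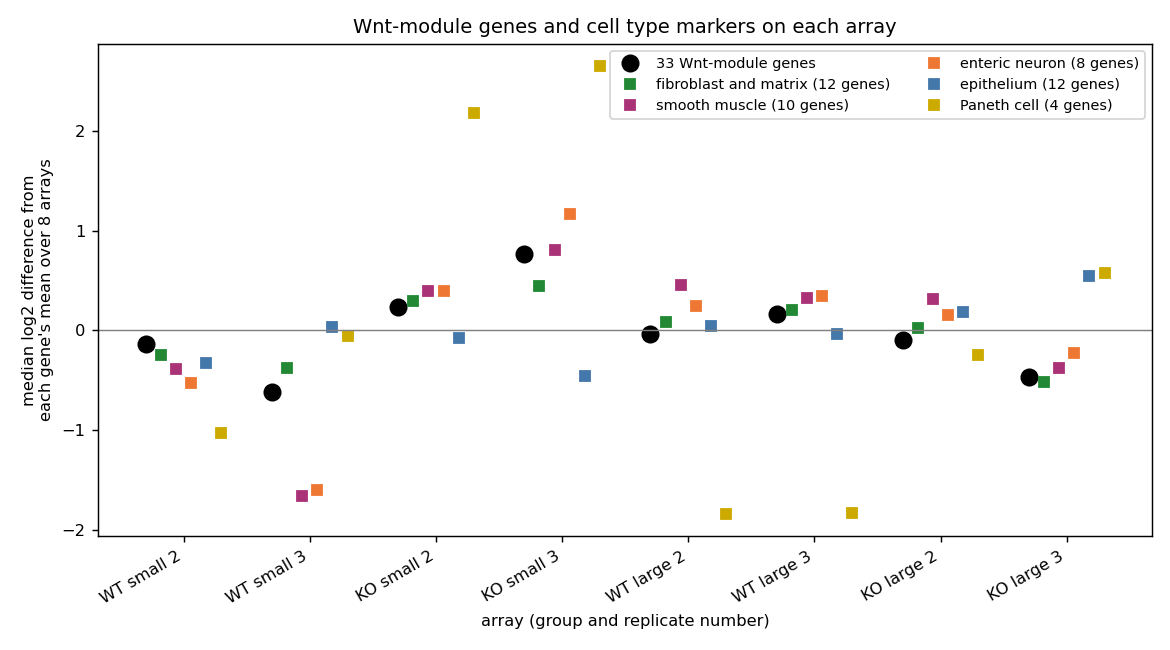
Median difference of the 33 kept members (black circles) and of the markers of 5 cell types (squares) from each gene's mean over the 8 arrays, on each array (log2; symbols of 1 array are set side by side for legibility). The members lie lowest on wild-type small intestine replicate 3 (-0.61) and highest on knockout small intestine replicate 3 (0.76), and the fibroblast, smooth muscle and neuron markers lie above 0 on both knockout small intestine arrays and below 0 on both wild-type small intestine arrays.

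Markers of most, but not all, cell types outside the epithelium also read higher in the knockout small intestine, as the plot of marker medians by array shows for fibroblasts, smooth muscle and neurons. All 12 fibroblast and matrix markers lay above 0 (median 0.85, 3 rose), and their summed signal, in multiples of the 75th percentile, was 252.5 to 312.9 in wild type and 496.7 to 517.3 in the knockout. All 10 smooth muscle markers lay above 0 (median 1.70, 1 rose, summed signal 163.7 to 298.0 against 459.5 to 566.6), as did 7 of 8 neuron markers (median 1.89, 6 rose, 10.96 to 18.9 against 31.9 to 52.6) and all 5 glia markers (median 2.02, 4 rose, 2.17 to 4.42 against 9.50 to 12.1). Of 7 markers of subepithelial signalling cells, 5 lay above 0 and 1 rose, with summed signals of 25.2 to 31.2 against 25.4 to 25.9. All 3 markers of interstitial cells of Cajal (median 1.33, 1 rose), all 6 of mesothelium (1.70, 4 rose), all 6 of endothelium (0.33, none rose) and 4 of 5 of macrophages (1.32, 3 rose) lay above 0 too. T cell markers went the other way: all 5 fell (median -3.02), with summed signals of 1.41 to 1.97 in wild type and 0.416 to 0.432 in the knockout. Of 4 liver markers 1 lay above 0 (median -0.76), and of 6 pancreas markers 3 did (median -0.09, 1 rose). Of 12 epithelial markers 4 lay above 0 (median -0.29, 1 rose and 1 fell), with summed signals of 505.6 to 575.0 against 504.4 to 625.7. No marker list had a member that was dim on every array among its kept genes (0 in each). The part of these cells in the members' differences was not tested, and in RNA of whole tissue a change in the number of cells of a type and a change of RNA per cell cannot be told apart. Paneth cell genes went the other way from Wnt3: all 4 measured markers lay above 0 and 3 rose, among them Lyz1, a Paneth cell lysozyme, with 2.48 and 2.47 in wild type and 5.32 and 5.86 in the knockout (3.11 ± 0.27, adjusted p = 0.00800). Lyz1 also read 1.77 and 1.26 on the wild-type large intestine arrays, so its signal was not confined to the small intestine. Defa24 was not kept by the filter.

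These counts lean on single arrays. Without wild-type small intestine replicate 3, or without knockout small intestine replicate 3, the members lost their calls, and far fewer of all genes were called. The same held without both knockout arrays numbered 3. Without knockout small intestine replicate 2, calls rose among the members and over all genes alike. Each of these fits leaves 1 array in at least 1 group. Wild-type small replicate 3 was the lowest of the 4 small intestine arrays for 15 members, and knockout small replicate 3 the highest for 20. Neither was counted over all genes. Without any 1 large intestine array the calls also fell, among the members and over all genes, and Wnt3 kept its call. A fit of the 2 groups alone passed 0 of 33 (0.164% of all genes). A fit with no background filter passed 2 of 41, Fzd5 and Wnt3 (1.92% of all genes).

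In the large intestine the same question gave no member past the threshold. Of 33 members 0 passed in limma (background 0.308%), with 6 at an unadjusted p under 0.05 (background 13.3%) and a lowest adjusted p of 0.177. The median over the members was -0.46, against -0.0012 over all genes, and 12 of 33 (36.4%) lay above 0 (all genes 49.9%). Knockout arrays lay below wild-type arrays without overlap for 17 members (background 27.7%) and above them for 6 (27.6%).

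The largest difference among the ligands was that of Wnt2, which read -6.64 and -6.64 in wild type and -4.28 and -5.40 in the knockout (1.80 ± 0.49, adjusted p = 0.237). Rspo2 read -2.03 and -2.09 against -2.89 and -3.71 (-1.24 ± 0.28, 0.177), and the groups did not overlap. Rspo3 (-0.33 ± 0.42) and Rspo1 (-0.31 ± 0.50) had adjusted p of 0.747 and 0.803. Wnt2b, with -5.56 and -6.28 against -6.02 and -7.56, overlapped (-0.87 ± 0.58, 0.544), and its knockout replicate 3 was not well above background. Among the receptors Fzd6 differed by 0.91 ± 0.50 (0.468) and Fzd10 by -0.76 ± 0.30 (0.354). Fzd7 differed by -0.63 ± 0.27 (0.385), Fzd2 by -0.69 ± 0.44 (0.531), Fzd5 by 0.29 ± 0.20 (0.561) and Fzd9 by 0.18 ± 0.33 (0.823). Among the antagonists, Dkk2 (-0.61 ± 0.37, 0.516), Dkk3 (-0.37 ± 0.34, 0.646), Sfrp5 (-0.58 ± 0.54, 0.653) and Sfrp2 (-0.55 ± 0.34, 0.524) lay below 0, and Sfrp4 (0.55 ± 0.75, 0.759) and Sfrp1 (0.17 ± 0.28, 0.808) above it. Wnt3 was not well above background on any of the 4 large intestine arrays, so that its difference there is not read.

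**Figure D3:**
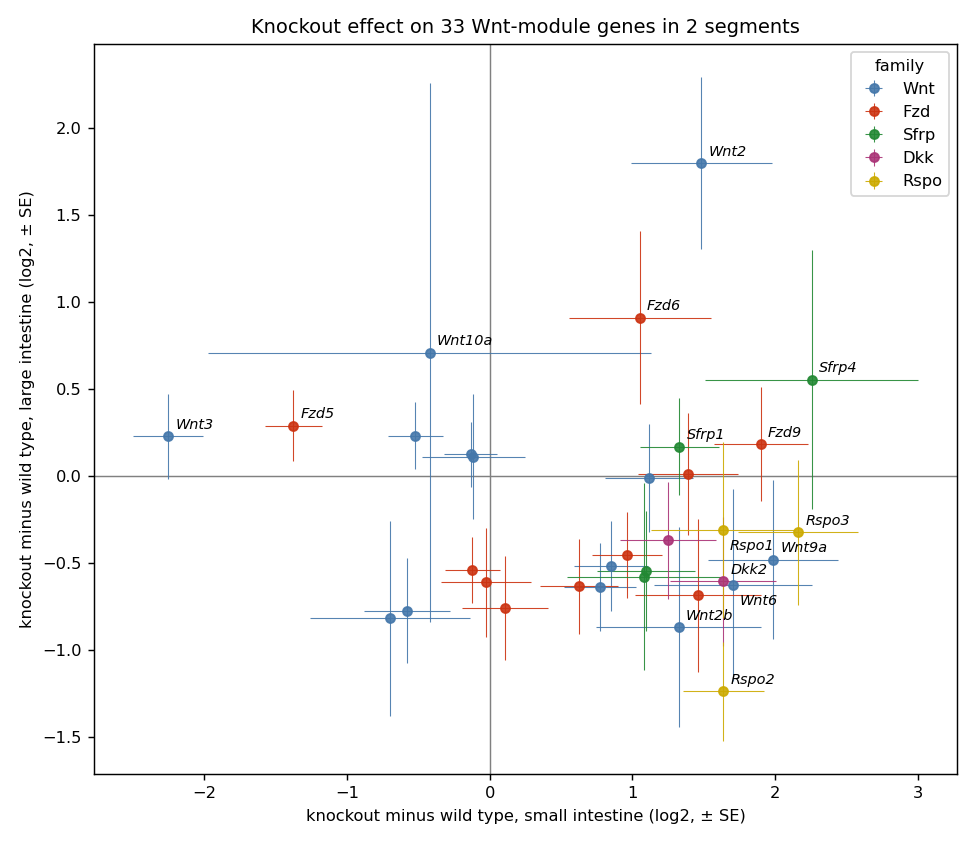
Knockout minus wild type (log2, bars ± standard error) in the small intestine (horizontal) and in the large intestine (vertical) for the 33 kept members, coloured by family. The lower right field holds 17 members, which were above 0 in the small and below 0 in the large intestine. The large intestine value of Wnt3 comes from spots not well above background.

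Of the 3 pathway lists, 1 gene passed in the large intestine. Dkkl1, a Dickkopf-related secreted protein, rose by 1.85 ± 0.20 (adjusted p = 0.0342), from -2.37 and -2.09 to -0.41 and -0.34. None of the 51 cytoplasmic and nuclear components and none of the 24 target genes passed in limma, with 2 and 5 at an unadjusted p under 0.05. The fibroblast and smooth muscle markers had medians on the opposite side of 0 from the small intestine. All 12 fibroblast and matrix markers lay below 0 (median -0.37, summed signal 417.0 to 452.0 in wild type and 289.2 to 388.8 in the knockout). All 12 epithelial markers lay above 0 (median 0.37, 592.1 to 594.6 against 717.4 to 842.8). In the small intestine the epithelial median was -0.29, but the summed signals of the genotypes overlapped. Of smooth muscle markers 9 of 10 lay below 0 (500.9 to 544.3 against 465.5 to 513.8). More lists had medians above 0 in the small and below 0 in the large intestine. These were subepithelial signalling cells (7 of 7 below 0, median -0.49), neurons (7 of 8, -0.40), glia (4 of 5, -0.45), interstitial cells of Cajal (3 of 3, -0.58), mesothelium (4 of 6, -0.41) and endothelium (6 of 6, -0.41). The Paneth cell list (4 of 4 above 0, median 1.89), the macrophage list (5 of 5 above, 0.25) and the T cell list (5 of 5 below, -0.34) lay on the same side of 0 in both segments. The liver list had 3 of 4 above 0 (median 3.26) and the pancreas list 2 of 6 (-0.13). The part of these cells in the members' values was not tested. Knockout large replicate 3 was the lowest of the 4 large intestine arrays for 17 members, which was not counted over all genes.

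Over both segments, with 4 arrays per genotype and segment as a term, 0 of 33 members passed in limma (background 0.651%), with 6 at an unadjusted p under 0.05 (background 15.2%). Wnt2 came nearest, with 1.64 ± 0.34 (3.12-fold, adjusted p = 0.0840), and both knockout arrays lay above both wild-type arrays in each segment. Its wild-type small intestine replicate 3 was not well above background, and without both knockout arrays numbered 3 it passed in the large intestine. The other 5 with an unadjusted p under 0.05 were Wnt4 (-0.68 ± 0.21, 0.194), Fzd6 (0.98 ± 0.34, 0.232), Fzd9 (1.04 ± 0.39, 0.264), Sfrp1 (0.75 ± 0.29, 0.277) and Sfrp4 (1.41 ± 0.59, 0.320). Wnt3, whose large intestine values are background, lay at -1.01 ± 0.48 (0.383). The R-spondins lay at 0.92 ± 0.54 (Rspo3, 0.480), 0.66 ± 0.49 (Rspo1, 0.576) and 0.20 ± 0.56 (Rspo2, 0.893), and the Dickkopf genes at 0.52 ± 0.48 (Dkk2, 0.652) and 0.44 ± 0.38 (Dkk3, 0.619). In the pathway lists Lgr5 alone passed here (-1.75 ± 0.25, adjusted p = 0.0446).

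Whether the knockout acted differently in the 2 segments was tested directly, as the large minus the small intestine effect. Of 33 members 0 passed in limma (background 0.139%), while 21 had an unadjusted p under 0.05 (background 25.8%), and the lowest adjusted p was 0.0829. Rspo2 differed most among the R-spondins, by -2.88 ± 0.40 (adjusted p = 0.0829), followed by Rspo3 with -2.49 ± 0.59 (0.1000). For 17 of 33 members the knockout value was above wild type in the small and below it in the large intestine, a pattern held by 23.9% of all genes. For 11 of these neither segment's groups overlapped (background 10%), and Fzd5 and Wnt1 showed the reverse without overlap (background 8.21%). Leaving out knockout small intestine replicate 2, which leaves 1 array in that group, added calls among the members and over all genes alike.

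**Figure D4:**
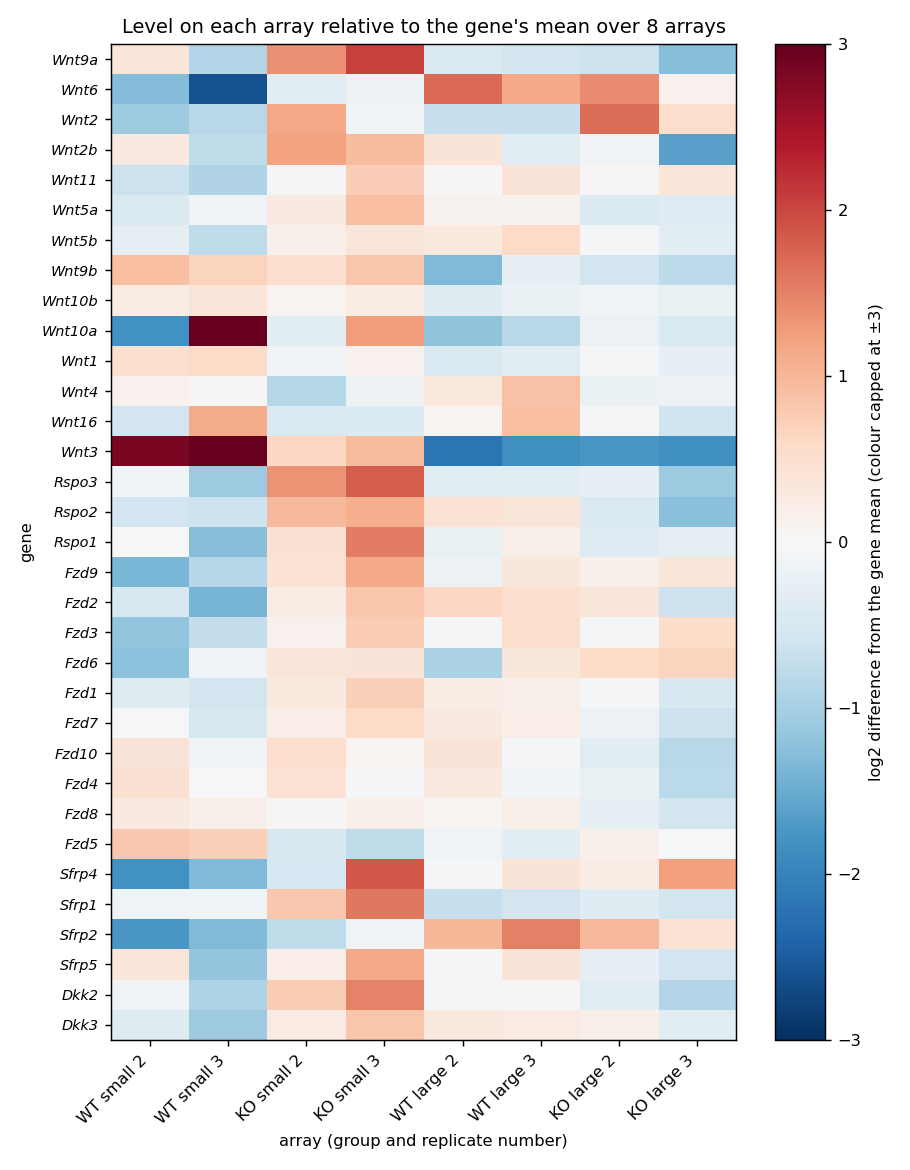
Level of each of the 33 kept members on each of the 8 arrays, as the log2 difference from that gene's mean over the 8 arrays (colour capped at 3 on either side), by family. Rspo1, Rspo2, Rspo3, Sfrp1, Dkk2 and Dkk3 are red on both knockout small intestine arrays. Wnt3 is red on all 4 small intestine arrays, more strongly in wild type, and blue on all 4 large intestine arrays.

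Between the segments of wild-type pups, 8 of 33 members passed (24.2%, background 19.8%), 4 higher in the large intestine (background 9.93%) and 4 higher in the small (background 9.92%). Of the 33, 23 (69.7%) read higher in the large intestine (background 50.1%), 16 of them without overlap (background 34.3%), and 6 read lower without overlap (background 35%). Wnt3 separated the segments most: it was not well above background on either large intestine array, and the small intestine read at least 21.2-fold higher. This bound sets the mean of the small intestine arrays against the higher of the large intestine spot and the lowest signal well above background on that array. Wnt3 passed with an adjusted p of 0.000128, but it was kept only through the small intestine and so had to differ. The other ligands higher in the small intestine were Wnt9b (1.57 ± 0.36 lower in the large, 2.96-fold, adjusted p = 0.0285) and Wnt1 (0.91 ± 0.19 lower, 0.0230). The call of Wnt1 rests on 1 probe, as its second probe was not well above background on any array. Wnt6 was higher in the large intestine by 3.36 ± 0.55 (10.3-fold, adjusted p = 0.0101), with -1.02 and -1.57 against -3.998 and -5.31, and Wnt5b by 0.96 ± 0.25 (0.0416). Among the receptors Fzd9 was higher in the large intestine (1.19 ± 0.33, 0.0480) and Fzd5 lower (-0.98 ± 0.20, 0.0207), while the second Fzd5 probe gave -0.09. Fzd2 (1.497 ± 0.44, 0.0559) and Fzd3 (1.20 ± 0.35, 0.0557) did not pass. Sfrp2 was higher in the large intestine by 2.78 ± 0.34 (6.85-fold, adjusted p = 0.00373), with 2.27 and 2.80 against -0.45 and -0.03. Sfrp4 (1.74 ± 0.75, 0.145), Rspo2 (0.996 ± 0.28, 0.0516), Rspo1 (0.60 ± 0.50, 0.431), Dkk3 (0.997 ± 0.34, 0.0811) and Dkk2 (0.51 ± 0.37, 0.369) did not pass. Smooth muscle markers read higher in the large intestine for 10 of 10 and neuron markers for 8 of 8 (medians 1.25 and 1.40), and their part in the members' values was not tested. Of the pathway lists, 6 receptors and extracellular modulators were higher in the large intestine and 2 lower (25% of 32, against 19.8% of all genes). Of the cytoplasmic and nuclear components 6 were higher and 3 lower (17.6% of 51), and of the target genes 1 was higher and 3 lower (16.7% of 24). Leaving out wild-type large replicate 2 or 3, or wild-type small replicate 3, lowered the number called among the members and over all genes alike. Sfrp2 and Wnt3 kept their calls in each of these runs.

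**Figure D5:**
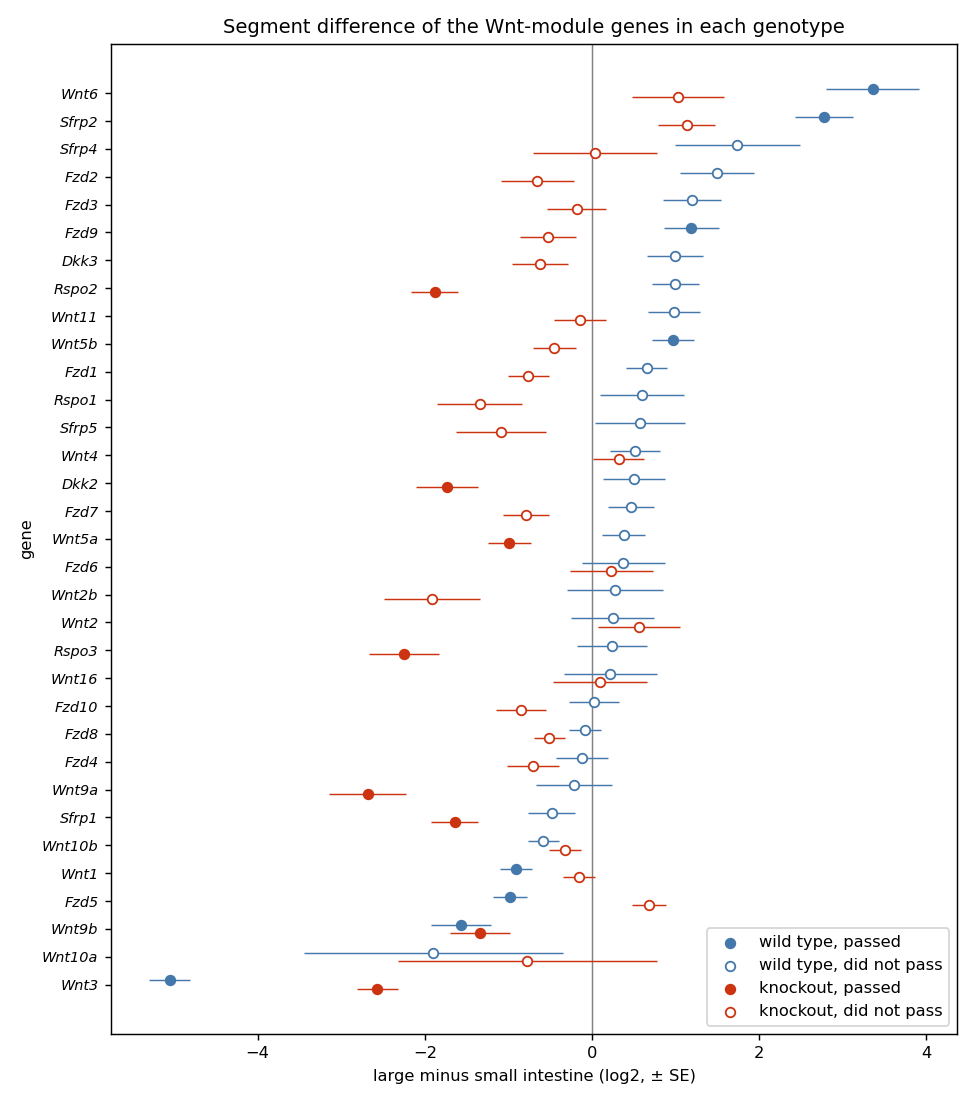
Large minus small intestine (log2, bars ± standard error) for the 33 kept members in wild type (blue) and in the knockout (red), with filled symbols for members that passed. Wnt3 has the lowest value in wild type, and its large intestine spots were not well above background. For Rspo2, Rspo3, Dkk2 and Wnt5a the wild-type value lies above 0 and the knockout value below 0.

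In the knockout pups, 8 of 33 members passed between segments (24.2%, background 15.9%), all of them lower in the large intestine (background 7.58%). Of the 33, 8 read higher in the large intestine (background 48.3%). The groups did not overlap for 4 higher members (background 30.6%) and 20 lower ones (background 30.7%). Wnt9a was lower by 2.69 ± 0.46 (6.43-fold, adjusted p = 0.0116), and Wnt3 read at least 4.10-fold higher in the small intestine (adjusted p = 0.00142), again kept through the small intestine alone. Rspo3 was lower by 2.25 ± 0.42 (4.75-fold, adjusted p = 0.0159) and Rspo2 by 1.88 ± 0.28 (3.69-fold, 0.00757). Dkk2 (-1.74 ± 0.37, 0.0258), Sfrp1 (-1.64 ± 0.28, 0.0114), Wnt9b (-1.34 ± 0.36, 0.0497) and the ligand Wnt5a (-0.99 ± 0.26, 0.0461) made up the rest. Sfrp2 lay on the higher side without passing (1.13 ± 0.34, 0.0684), with 2.27 and 1.71 against 0.53 and 1.18, as did Wnt6 (1.03 ± 0.55, 0.233). Fzd10 (-0.84 ± 0.30, 0.0997) and Fzd7 (-0.79 ± 0.27, 0.0935) did not pass. This comparison shares its small intestine arrays with the knockout comparison above, so that its values are no separate evidence for those genes. Markers of fibroblasts, smooth muscle and neurons had medians of -0.63, -0.67 and -0.84 here, and their part was not tested. Of the pathway lists, 2 receptors and modulators were higher in the large intestine and 1 lower (9.38% of 32, against 15.9% of all genes). The components had 3 higher and 3 lower (11.8% of 51), and the targets also 3 higher and 3 lower (25% of 24). Leaving out knockout large replicate 3, alone or with knockout small replicate 3, lowered the number called among the members and over all genes alike. Leaving out knockout small replicate 3 alone lowered the members' count, with little change over all genes. Rspo2 and Wnt3 kept their calls in each of these runs.

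The background filter left out 8 members: Wnt3a, Wnt7a, Wnt7b, Wnt8a, Wnt8b, Dkk1, Dkk4 and Rspo4. Wnt3a, Wnt7a, Wnt8a and Rspo4 were not well above background on any of the 8 arrays. Wnt7b was above it on 4 arrays, always those numbered 2, Wnt8b on 3, and Dkk1 and Dkk4 on 1 each. Wnt16 was read by a probe that gave -0.69 in knockout against wild-type small intestine, while a dimmer probe gave 1.499, and the second probe of Wnt1 was not well above background on any array.

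The probes of the members that passed in the knockout comparison lie, on mouse build mm9 per the file, at chr11:103679038-103679097 (Wnt3), chr11:59146953-59147012 (Wnt9a), chr1:64779479-64779538 (Fzd5), chr5:135724815-135724874 (Fzd9), chr15:42852727-42852786 (Rspo2), chr10:29172930-29172989 (Rspo3), chr8:24559438-24559497 (Sfrp1) and chr3:131842357-131842416 (Dkk2). Their place within exons was not analysed here. Some member genes are neighbours in the genome: Wnt9b and Wnt3, Wnt3a and Wnt9a, Wnt6 and Wnt10a, and Wnt10b and Wnt1 stand next to each other in the gene table. Wnt3 fell in the knockout small intestine while its neighbour Wnt9b lay at -0.11 ± 0.36, and Wnt9a rose while Wnt3a stayed at background.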

How the data were processed

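RNA of 8 samples was hybridised to Agilent single-colour arrays (Cy3). The deposited scanner files give an intensity per spot that Feature Extraction 10.7.3.1 had corrected for background inside each array, without scaling the arrays to each other, and list probe coordinates of mm9, per the file headers. The authors also deposited normalized intensity values per probe on a linear scale, used as an alternative, and the submitters' processing notes name R 3.3.0. No source used here gives further steps. Groups and replicate numbers come from the sample titles.

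The log2 of the processed intensity was centred on the 75th percentile of the array's 59305 non-control spots (a signal of 2642.5 to 3571.77). Outlier-flagged spots were left out (148 to 312 per array), spots of 1 probe were averaged, and 1 probe stood for a gene, the kept probe with the highest mean. Of 55681 probes, 302 were dropped for a flag and 38717 were kept by the filter. Probes were named through their accession (26056), a current symbol (3200) or an older symbol (930) in a gene table of assembly GRCm38.p6 with 49997 genes, and 2684 kept the file's name. Where symbols had changed, the printed name set membership.

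The fits were made with limma 3.58.1 under R 4.3.3, using a mean for each group and moderated variances (residual df of 4). For both segments together the model held segment and genotype without interaction (residual df of 5). In each of the 6 comparisons the Benjamini-Hochberg adjustment ran over all genes. The fits were tested on simulated data with few changed genes, where most 2-fold changes did not pass. The number of arrays, 2 per group, limits the precision: the median standard error over the members was 0.34 within a segment.

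The members, pathway lists, markers and alternatives were chosen with earlier results of these data known. Named with values are members that passed in any comparison, the 2 of each family with the largest difference, pathway genes that passed in a knockout comparison (at most 6 per list), and further members for completeness. All 8 arrays lay on 1 slide, and each group filled 1 slide column, so that column and group cannot be told apart.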

Additional observations from a re-analysis of the deposited data

Results flagged for a closer look

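For 13 members the knockout arrays lay on opposite sides of wild type in the small and in the large intestine without overlap in either segment, 11 higher in the small and lower in the large intestine (all genes 10%) and 2 the reverse (all genes 8.21%). In limma none of the 13 differences between segments passed after the Benjamini-Hochberg adjustment (0 of 13, adjusted p of 0.0829 to 0.156), and their source was not tested. Each value is the knockout effect in the large minus that in the small intestine, on the log2 scale.

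The first 11 are given by family. Among the R-spondins the difference was -2.88 for Rspo2 and -1.94 for Rspo1. Among the ligands it was -2.47 for Wnt9a, -1.41 for Wnt5b and -1.37 for Wnt5a. Among the Frizzled receptors it was -2.15 for Fzd2, -1.42 for Fzd1 and -1.26 for Fzd7. Among the antagonists it was -2.24 for Dkk2, -1.62 for Dkk3 and -1.64 for Sfrp2. The receptor Fzd5 (1.66) and the ligand Wnt1 (0.75) had the reverse order, and the second probe of Wnt1 was not well above background on any array.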

How the results depend on the processing

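In knockout against wild-type small intestine, 8 members passed (9.89% of all genes). Without a background filter 2 did (1.92%), and with the 2 compared groups alone 0 did (0.164%). The members' count was 0 to 15 when 1 array was left out. It was 0 without both knockout arrays numbered 3, a choice made after seeing the data. Far fewer of all genes were called in the runs with 0 members, and more in the run with 15. In the large intestine 0 passed (0.308% of all genes), and leaving out any 1 array gave no member a call. Without both knockout arrays numbered 3 Wnt2 gained a call, and more of all genes were called. For the difference between segments 0 passed (0.139% of all genes), and 1 (Rspo2) did with the deposited values (0.164%). Leaving out knockout small replicate 2 added calls among the members and over all genes. Between wild-type segments 8 passed (19.8% of all genes), and 5 did at a threshold of 2-fold (17.3%). The counts of members and of all genes both rose without either knockout small intestine array. Both fell without any 1 wild-type array. Between knockout segments 8 passed (15.9% of all genes), and 4 did with the 2 groups alone (7.82%). The count was 2 without both knockout arrays numbered 3, and 2 to 7 with 1 array left out. Fewer of all genes were called in each of these runs too, with little change without knockout small replicate 3 alone. Rspo2 between knockout segments and Sfrp2 between wild-type segments passed in every alternative run. Wnt3 passed between segments wherever it was tested, but it was not tested among genes well above background on all 8 arrays, and its filter made it differ.

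The numbers 2 and 3 are not said to mark shared pups. With the replicate number as a block, 6 members passed in the small intestine (5.75% of all genes). Between segments 8 passed in wild type (19.2%) and 11 in the knockout (17.6%). Without the block 8 passed in each. In the small intestine 5 of the 8 were shared: Dkk2, Sfrp1 and Wnt9a did not pass with the block, and Fzd3 did. Deviations of same-numbered arrays correlated between groups at 0.007 to 0.26 across all genes and at 0.23 to 0.61 across the 33 members.

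Cldn7 kept its sign throughout. The small intestine call (-4.34) was lost with the 2 groups alone (adjusted p = 0.0772), and the large intestine call (-3.52) with no background filter (0.0578) or the replicate block (0.0725). With 1 array left out, values ran from -3.58 to -3.45 in the large intestine and from -4.10 to -3.59 over both segments. The call over both segments was lost on leaving out wild-type large replicate 2 (-3.98) or 3 (-4.04). Rspo3 in the large intestine ran from -0.75 to 0.10 with 1 array left out, and read 0.10 without knockout large replicate 3, alone or with the small intestine one. Rspo1 between wild-type segments ran from -0.052 (without wild-type small replicate 3) to 1.25. Of the other single-gene values, 908 kept direction and side of the threshold, 137 no longer passed and 37 newly passed. Many of the 908 had not passed in the main fit and so had no call to lose. The members that passed in the knockout small intestine lost their call in 4 of 18 runs (Wnt3) to 11 of 19 (Sfrp1). Dkk2 and Wnt9a lost it in 10 of 19. The cause of these shifts was not tested.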
